A study of Mus musculus with 8 samples.

Results

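Voltage-gated and potassium channel genes were examined in pluripotent cells, neural stem cells (NSCs), and the hybrid cells made by fusing the latter with extended pluripotent stem cells (EPSCs). Members were chosen by symbol alone, as every listed gene of the Kcn series whose symbol ends in a number, of the Scn series with the ending a or b, and of the Cacn a, b, and g series. The rule gave 131 of 24354 listed genes. The symbol rule leaves out Kcnrg, Kcne1l, Scn2a, which the table lists under the older symbol Scn2a1, the epithelial sodium channel genes, and the noncoding transcripts Kcnq1ot1, Kcnd3os, Kcnmb4os1, and Kcnmb4os2. RNA sequencing covered 8 libraries, 2 from each of 4 cell lines. Embryonic stem cells (ESCs) were of the E14 line and labelled wild type. NSCs were heterozygous for both OG2, an Oct4-GFP reporter transgene, and ROSA26, which gives ubiquitous lacZ, and were grown on gelatin with EGF and FGF2. EPSCs, also labelled wild type, were C57BL/6 line 1 at passage 15, derived and kept in LCDM medium. The EPSC-NSC hybrid line was 2-2, used at passage 10, made with polyethylene glycol, isolated as Oct4-GFP+ cells, near-tetraploid, and kept in LCDM medium. ESCs, EPSCs, and hybrid cells shared a layer of mitomycin C-treated C3H mouse embryonic fibroblasts, whereas NSCs had no feeder cells. Both libraries of a group came from 1 line. The study states that sequencing was done in duplicate, and the caption of 1 panel of its sequencing figure names 2 independent experiments. No source describes how the duplicates were cultured. The tests thus measure the spread between these libraries, which may be technical, and not between derivations or fusions. Feeder layer, medium, and strain differ together with some of the groups and cannot be told apart from them.

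Ion channels of these families let potassium, sodium, or calcium ions cross the cell membrane. Voltage-gated channels open when the membrane depolarizes: sodium channels carry the upstroke of the action potential, calcium channels couple it to calcium entry, and potassium channels repolarize the cell. Inwardly rectifying and two-pore-domain potassium channels conduct near the resting potential and help set it. Accessory subunits alter the trafficking and gating of the pores, and several gamma subunits of the calcium channel family instead serve AMPA-type glutamate receptors as transmembrane regulatory proteins. Neural stem cells and glia are known for large inward rectifier and leak potassium currents, whereas pluripotent cells are largely not excitable.

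Expression was given as FPKM, mapped fragments scaled to transcript length in kilobases and to a library of 1000000 fragments. The depth derived from the steps between low FPKM values was 22.0 to 32.6 per library, in units of 1000000 fragments, so that 3 fragments of a 2 kb transcript amount to between 0.0511 and 0.0757 FPKM. This floor accounts for counting error alone. Summed FPKM were 415240 and 415412 in the NSC libraries and 600674 to 653796 in the other 6. Replicate libraries correlated with r of 0.988 to 0.995 on log2(FPKM + 1) across genes, which are not independent replicates. Of the neural stem cell markers, 8 of 8 were reduced in hybrid cells relative to NSCs, and Fabp7, a radial glial marker, was at 2798 and 2709 FPKM in NSCs. Of the pluripotency markers, 6 of 6 were raised in hybrid cells relative to NSCs. The summed level of 10 fibroblast markers was 13.97 and 14.8 FPKM in ESCs, 9.17 and 10.5 in NSCs, 80.6 and 76.9 in EPSCs, and 308 and 225 in hybrid cells. In NSCs, Col1a2, Lum, and Twist2 were listed at 0 in both libraries. Prrx1 went the other way, with its highest group mean in NSCs, at 6.36 and 7.70 FPKM, and made up most of their sum. Acta2 was at 1.73 and 1.60 and Thy1 at 0.752 and 0.931 in NSCs.

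The number of channel genes over 1 FPKM and the summed level of all members were highest in NSCs, although 79 of the 131 exceeded 1 FPKM in no group. A group mean over 1 FPKM was found for 44 of the 131 members in NSCs (33.6%), 20 in hybrid cells (15.3%), 20 in ESCs (15.3%), and 18 in EPSCs (13.7%). Over all listed genes, these shares were 46.5%, 46.8%, 45.9%, and 45.9%, respectively. The FPKM of all 131 members summed to 671 and 679.7 in the NSC libraries, 76.0 and 81.1 in hybrid cells, 85.6 and 83.5 in EPSCs, and 110.0 and 115 in ESCs. At this scale the pluripotent lines and the hybrid cells lay together and the NSC libraries stood far above them. In this bulk RNA, fewer cells expressing a gene and less of its RNA per cell cannot be told apart.

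Which groups expressed a member differed widely among members. NSCs alone had a mean over 1 FPKM for 28 members, and all 4 groups did for 13. ESCs, EPSCs, and hybrid cells but not NSCs did for 4 members, which were Kcnh3, Kcnip2, Kcnk6, and Kcns3. The remaining 7 had other combinations, and 79 members exceeded 1 FPKM in no group. Of these 79, 31 stayed below 0.1 FPKM in every library, and Cacng2, Kcne3, Kcnj1, and Kcnk9 were listed at 0 in all 8.

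**Figure D1:**
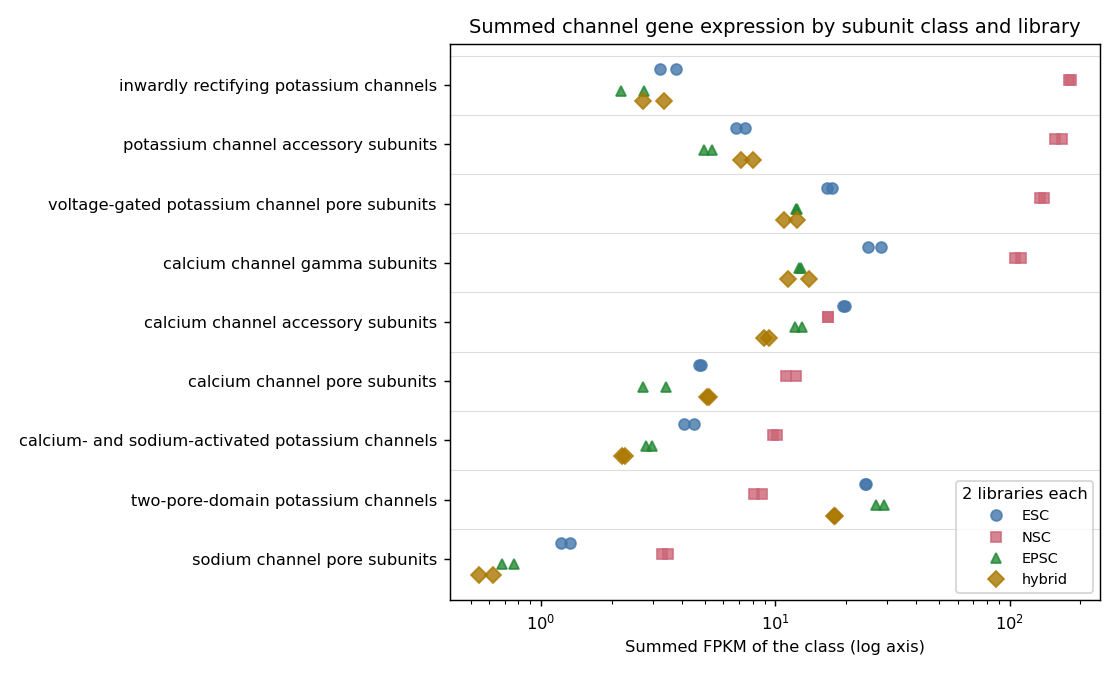
Summed FPKM of the members of each subunit class (horizontal log axis) in each library, for 9 classes, with 2 points per group for ESCs, NSCs, EPSCs, and hybrid cells. NSC libraries lie to the right of the other 6 in 7 of the 9 classes, calcium channel accessory subunits (alpha2delta and beta) are highest in ESCs and lowest in hybrid cells, and two-pore-domain channels are lowest in NSCs.

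By class, inwardly rectifying channels had the widest gap. Their 15 members summed to 179.8 and 183 FPKM in NSCs, against 2.203 and 2.76 in EPSCs and 2.73 and 3.34 in hybrid cells. Nearly all of the NSC sum was Kcnj10, at 153 and 153, and Kcnj16, at 23.6 and 26.1. Voltage-gated potassium channel pore subunits, 40 members, summed to 135 and 139.6 in NSCs and 10.9 and 12.3 in hybrid cells. Two-pore-domain channels ran the other way, with 8.11 and 8.78 in NSCs, 17.9 and 17.8 in hybrid cells, 24.4 and 24.1 in ESCs, and 29.1 and 26.9 in EPSCs.

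Groups were compared with limma on log2(FPKM + 1) for the 13239 genes whose mean reached 1 FPKM in at least 1 group, and a gene was called at a Benjamini-Hochberg adjusted p under 0.05. Only 52 of the 131 members (39.7%) entered this test, against 54.4% of all genes. NSCs were the highest group for 38 of these 52 (73.1%), against 39.7% of all tested genes. Of the 52, 28 entered only through their level in NSCs and so had to be lower in the other groups, as did 1119 of all tested genes. The counts and medians against NSCs below therefore describe the tested members, not all 131, and carry no support for a direction of the family. The comparisons share libraries and are not independent. With 2 libraries on each side, the smallest two-sided p of an exact permutation test is 0.333. The rule of the study's methods, a group mean over 3 FPKM and a ratio of means over 3, was also applied to all genes without a test.

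Hybrid cells were compared with their NSC parent. Of the 52 tested members, 41 (78.8%) were lower in hybrid cells, where 42.0% of all tested genes were, and 9 (17.3%) were higher, where 44.5% were. Of the 24 members that entered through another group, 13 were lower (54.2%) and 9 higher (37.5%), against 36.7% and 48.6% of the 12120 genes that entered in this way. The libraries of both groups did not overlap for 50 of the 52 (96.2%), against 92.7% of all tested genes. On log2(FPKM + 1), 32 of the lower and 7 of the higher members changed by more than 1, and by the ratio of mean FPKM, 36 and 9 changed more than 2-fold. The median log2 fold change was -1.24 over the tested members and 0.06 over all tested genes. By the study's rule, 21 of 131 members differed (16.0%), 19 of them lower in hybrid cells, against 15.8% of all listed genes. Scaling each library to the same summed FPKM moved the medians to -2.06 for members and -0.51 for all genes, and none of the 50 called members changed its direction. With this scaling, the study's rule gave 34 members (26.0%), against 20.6% of all listed genes.

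**Figure D2:**
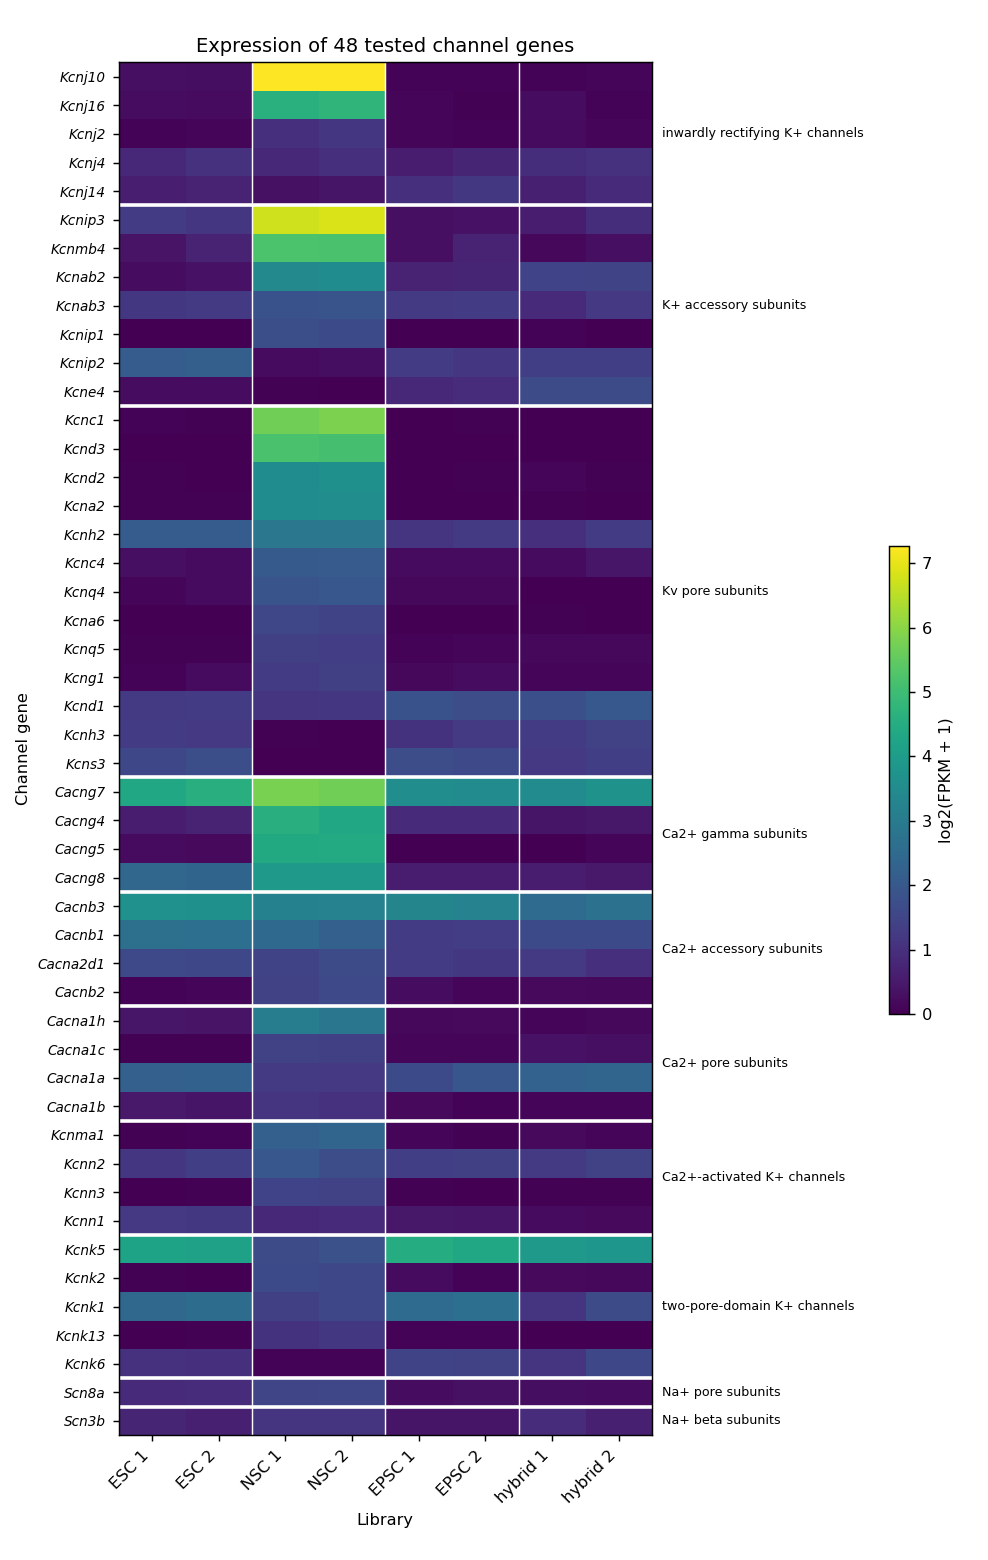
Expression of 48 tested members (rows, by subunit class and then by their NSC mean) in the 8 libraries (columns), colored by log2(FPKM + 1). Most rows are bright in the NSC columns only, whereas Kcnk5, Kcnk1, Kcnk6, Kcns3, Kcnh3, and Kcnip2 are darker there than in ESCs.

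The upstream sequence of a few members is shown to set the CG content of members high in NSCs beside that of members low in them. Sequences are from RefSeq on GRCm38.p6, the 250 bases before the annotated start, 5′ to 3′ on the gene's strand, with CG dinucleotides in capitals. They were chosen among 9 members over 1 FPKM in a library that have 1 listed start at the edge of the gene. Kcnj10 (chr1:172340960-172341209, plus strand), Kcnd3 (chr3:105451640-105451889, plus strand), and Kcnd2 (chr6:21215096-21215345, plus strand) were high in NSCs and near 0 elsewhere, and their windows hold 17, 18, and 22 CG dinucleotides. Cacng8 (chr7:3393792-3394041, plus strand) was high in NSCs and intermediate in ESCs, and its window holds 0. This window ends in a pyrimidine-rich stretch followed by AG, as introns do, so it may not lie before a true transcription start. Whether the annotated starts are those used in these cells was not tested.
Kcnj10: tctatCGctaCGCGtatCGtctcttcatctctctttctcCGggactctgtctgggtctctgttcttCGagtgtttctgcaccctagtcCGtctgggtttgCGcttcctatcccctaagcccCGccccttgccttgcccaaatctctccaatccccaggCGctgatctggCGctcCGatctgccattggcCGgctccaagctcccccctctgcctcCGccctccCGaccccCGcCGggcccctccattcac
Kcnd3: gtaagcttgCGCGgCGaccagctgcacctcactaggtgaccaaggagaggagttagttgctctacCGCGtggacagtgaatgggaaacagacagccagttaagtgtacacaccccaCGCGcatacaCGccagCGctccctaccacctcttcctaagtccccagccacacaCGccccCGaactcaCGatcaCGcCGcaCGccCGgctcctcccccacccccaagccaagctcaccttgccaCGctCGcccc
Kcnd2: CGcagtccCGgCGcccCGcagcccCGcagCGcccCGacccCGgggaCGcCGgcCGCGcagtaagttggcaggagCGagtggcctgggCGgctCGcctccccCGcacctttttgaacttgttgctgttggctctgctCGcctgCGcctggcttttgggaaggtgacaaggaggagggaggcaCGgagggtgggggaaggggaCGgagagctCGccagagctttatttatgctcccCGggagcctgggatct
Cacng8: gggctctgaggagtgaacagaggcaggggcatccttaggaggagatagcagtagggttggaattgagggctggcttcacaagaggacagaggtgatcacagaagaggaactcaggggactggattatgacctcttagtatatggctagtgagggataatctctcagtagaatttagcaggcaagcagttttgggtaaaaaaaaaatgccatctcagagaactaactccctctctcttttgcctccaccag
Kcnk5 (chr14:20181783-20182032, minus strand) had the opposite expression pattern, with 19 CG dinucleotides, and Kcne4 (chr1:78816661-78816910, plus strand) was highest in hybrid cells, with 7.
Kcnk5: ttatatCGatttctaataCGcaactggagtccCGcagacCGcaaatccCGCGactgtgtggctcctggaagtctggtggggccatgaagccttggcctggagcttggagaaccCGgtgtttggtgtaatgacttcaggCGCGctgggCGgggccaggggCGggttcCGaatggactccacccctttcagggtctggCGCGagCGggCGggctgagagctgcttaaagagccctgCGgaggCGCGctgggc
Kcne4: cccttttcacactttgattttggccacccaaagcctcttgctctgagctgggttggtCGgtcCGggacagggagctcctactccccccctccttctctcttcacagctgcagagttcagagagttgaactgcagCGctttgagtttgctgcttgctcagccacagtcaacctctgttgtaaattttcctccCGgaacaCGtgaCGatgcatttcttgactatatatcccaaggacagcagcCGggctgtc

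RefSeq promoters were listed for 96 of the 131 members, 131 windows in all. The median number of CG dinucleotides per window was 8 for all members and 10 for all genes in the table. It was 12 for the members over 1 FPKM in NSCs alone (35 windows of 21 genes) and 11 for all genes of that pattern, so the members resembled other genes of the pattern in this count. For members over 1 FPKM in no group the median was 6, against 3 for all such genes. The letters CAGCTG, a palindromic E-box bound by proneural bHLH factors, were found in 28.6% of the windows of members over 1 FPKM in NSCs alone and in 24.7% of those over 1 FPKM in no group. The same letters were in 12.6% of all windows, and in 0 of the 9 windows of members over 1 FPKM in all 4 groups. For all genes over 1 FPKM in NSCs alone, in no group, and in all 4 groups, these shares were 15.3%, 13.5%, and 11.1%. On either strand, GGGCGG, the core of a GC box, was in 42.7% of member windows and 43.2% of all windows, and TATAAA, the core promoter element bound by TBP, was in 3.05% and 11.2%. TTCAGCACC, the left part of the site bound by the repressor REST, was in 0.763% and 0.347%. In the windows printed above, the E-box letters occur 1 time each in Kcnd3 and Kcne4, and those of the GC box 3 times in Kcnk5, 2 times in Kcnj10, and 1 time in Kcnd2.

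Inwardly rectifying potassium channels pass inward current more readily than outward current and draw the membrane toward the potassium equilibrium potential. Kcnj10, the main inward rectifier of astrocytes and oligodendrocytes, was listed at 0.225 and 0.213 FPKM in the ESC libraries, 153 and 153 in NSCs, 0.0433 and 0.05 in EPSCs, and 0.0558 and 0.0674 in the hybrid libraries. It was the most abundant member in NSCs and lay near the floor in EPSCs and hybrid cells. Its log2 fold change in hybrid cells against NSCs was -7.18 (SE 0.07, limma, adjusted p = 6.79e-10). Kcnj16, which forms heteromeric channels with it, was at 23.6 and 26.1 FPKM in the NSC libraries, 0.0792 and 0.0254 in EPSCs, and 0.179 and 0.0513 in the hybrid libraries, and its log2 fold change was -4.53 (adjusted p = 7.13e-09). Kcnj2, an inward rectifier of heart and brain, was much lower even in NSCs, at 0.996 and 1.24 FPKM, with 0.166 and 0.0669 in hybrid cells. Of 4 astrocyte markers, 3 were highest in NSCs, where Gfap was at 29.2 and 24.8 FPKM, S100b at 3.40 and 3.24, and Aqp4 at 2.03 and 1.78, against at most 0.12 in any other library. The remaining marker, Aldh1l1, went the other way, at 3.05 and 2.22 in NSCs and 4.31 and 5.64 in hybrid cells, with 7.28 and 7.597 in ESCs and 2.93 and 3.53 in EPSCs. The part of cells with astrocyte expression in the Kcnj10 level was not tested.

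Potassium channel accessory subunits were the second class by their NSC sum. Kcnip3, a calcium-binding protein of the KChIP family also known as calsenilin or DREAM, was at 1.38 and 1.24 FPKM in the ESC libraries, 106 and 116 in NSCs, 0.232 and 0.29 in EPSCs, and 0.488 and 0.919 in the hybrid libraries. NSC libraries were far above all others, and hybrid cells were above EPSCs. The log2 fold change of Kcnip3 against NSCs was -6.05 (SE 0.13, limma, adjusted p = 9.95e-09). Kcnmb4, the neuronal beta subunit of the large-conductance calcium-activated channel, was at 0.298 and 0.646 FPKM in the ESC libraries, 36.2 and 35.4 in NSCs, 0.229 and 0.656 in EPSCs, and 0.105 and 0.22 in the hybrid libraries, and its log2 fold change was -4.99 (adjusted p = 7.55e-08). ESC and EPSC libraries overlapped, and both hybrid libraries lay just below those of EPSCs. Kcnip1, another KChIP, was at 2.36 and 2.08 in NSCs, and was listed at 0 in 5 of the other 6 libraries. Kcnmb1 lies within the Kcnip1 gene and was at 0 in both NSC libraries. For Kcnip3, Kcnmb4, and Kcnip1 the NSC libraries lay above all others without overlap.

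Voltage-gated potassium channel pore subunits included 15 tested members, with 12 below and 3 above their NSC level in hybrid cells, against 42.0% and 44.5% of all tested genes, and 10 of the 15 entered through NSCs alone. Kcnc1, a fast-activating channel of rapidly firing neurons, was at 0.0488 and 0.04 FPKM in the ESC libraries, 51.0 and 55.7 in NSCs, 0.00593 and 0.021 in EPSCs, and 0 and 0.0116 in the hybrid libraries. Kcnd3 and Kcnd2 form A-type channels together with KChIP proteins. Kcnd3 was at 0.0133 and 0.0145 FPKM in the ESC libraries, 35.1 and 33.8 in NSCs, 0.00646 and 0.0187 in EPSCs, and 0.0178 and 0 in the hybrid libraries, and Kcnd2 at 10.6 and 11.6 FPKM in the NSC libraries, 0 and 0.03 in EPSCs, and 0.0668 and 0.0202 in the hybrid libraries. For all of these, the NSC libraries were high and the other 6 were at or under the floor. The log2 fold change in hybrid cells against NSCs was -5.75 (adjusted p = 1.74e-09) for Kcnc1, -5.14 (adjusted p = 1.74e-09) for Kcnd3, and -3.53 (adjusted p = 8.75e-09) for Kcnd2. Kcna2, a delayed rectifier of axons, was at 10.6 and 10.9 FPKM in the NSC libraries, 0.0158 and 0.0152 in EPSCs, and 0.0291 and 0.00385 in the hybrid libraries. Kcnh2, the channel of the rapid delayed rectifier current of the heart, kept a measurable level, at 3.31 and 3.35 FPKM in the ESC libraries, 6.31 and 6.35 in NSCs, 1.13 and 1.35 in EPSCs, and 1.03 and 1.41 in the hybrid libraries, and its log2 fold change was -1.73 (adjusted p = 1.59e-06).

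The calcium-activated class had 4 tested members, and hybrid cells were below NSCs for all 4, where 42.0% of all tested genes were lower and 2 of the 4 entered through NSCs alone. Kcnma1, the pore of the large-conductance channel, was at 3.73 and 4.22 FPKM in the NSC libraries, 0.0619 and 0.0298 in EPSCs, and 0.126 and 0.0905 in the hybrid libraries. Thus both the pore and its beta subunit Kcnmb4 were high in NSCs and low in hybrid cells. Kcnn2, a small-conductance channel, differed far less, at 1.21 and 1.53 FPKM in the ESC libraries, 2.96 and 2.26 in NSCs, 1.52 and 1.58 in EPSCs, and 1.33 and 1.69 in the hybrid libraries, with a log2 fold change of -0.52 (adjusted p = 0.00517). The calls of Kcnn2, Kcnj14, and Scn3b were lost under at least 1 of the alternatives, and 47 of the 50 calls held under every alternative in which the gene was tested.

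Calcium channel gamma subunits had 4 tested members, and all 4 were lower in hybrid cells, against 42.0% of all tested genes, with 2 of them entered through NSCs alone. Cacng4, Cacng5, Cacng7, and Cacng8 all belong to the group that regulates AMPA receptors. Cacng7 was at 19.5 and 22.5 FPKM in the ESC libraries, 54.9 and 50.9 in NSCs, 10.8 and 10.3 in EPSCs, and 10.3 and 12.3 in the hybrid libraries. It was the most abundant calcium channel member in every group, with a ratio of the NSC to the hybrid mean of 4.68. Cacng4 was at 0.458 and 0.663 FPKM in the ESC libraries, 22.5 and 19.5 in NSCs, 0.822 and 0.842 in EPSCs, and 0.324 and 0.396 in the hybrid libraries. Cacng5 was at 20.5 and 20.8 FPKM in the NSC libraries, 0 and 0 in EPSCs, and 0 and 0.0632 in the hybrid libraries, with both EPSC libraries at 0. Cacng8 was at 4.28 and 4.10 FPKM in the ESC libraries, 14.4 and 14.3 in NSCs, 0.503 and 0.482 in EPSCs, and 0.463 and 0.412 in the hybrid libraries. For Cacng7 and Cacng8, ESCs lay between NSCs and the other groups without overlap. The log2 fold changes in hybrid cells against NSCs were -4.01 (adjusted p = 2.05e-08) for Cacng4, -2.14 (adjusted p = 4.46e-07) for Cacng7, and -3.42 (adjusted p = 1.01e-08) for Cacng8.

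Sodium channel pore subunits were modest in all groups. Scn8a, the main sodium channel pore of the axon initial segment, had the highest mean over all libraries in its class, although Scn3a exceeded it in EPSCs and hybrid cells. It was at 0.815 and 0.905 FPKM in the ESC libraries, 1.85 and 1.93 in NSCs, 0.182 and 0.257 in EPSCs, and 0.208 and 0.181 in the hybrid libraries. Its log2 fold change in hybrid cells against NSCs was -1.27 (adjusted p = 9.18e-07), and hybrid cells and EPSCs overlapped.

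Among voltage-gated calcium channels, Cacna1h, a low-voltage-activated T-type pore, was at 7.25 and 6.21 FPKM in the NSC libraries, 0.112 and 0.13 in EPSCs, and 0.0825 and 0.12 in the hybrid libraries, with a log2 fold change of -2.81 (adjusted p = 4.48e-08). Cacna1c, the L-type pore of heart and brain, was at 1.66 and 1.59 FPKM in NSCs and 0.283 and 0.235 in hybrid cells. Cacna1a, the P/Q-type pore of presynaptic terminals, had the reverse order, at 3.65 and 3.82 FPKM in the ESC libraries, 1.35 and 1.31 in NSCs, 2.08 and 2.84 in EPSCs, and 3.89 and 4.14 in the hybrid libraries. Its log2 fold change in hybrid cells against NSCs was 1.10 (SE 0.11, limma, adjusted p = 3.52e-05). The beta subunits Cacnb1 and Cacnb3, which carry the pore to the membrane, were present in every library. Cacnb3 was at 11.7 and 11.5 FPKM in the ESC libraries, 8.12 and 8.36 in NSCs, 8.99 and 8.30 in EPSCs, and 4.85 and 5.71 in the hybrid libraries, and Cacnb1 at 5.44 and 5.27 FPKM in the ESC libraries, 4.61 and 3.68 in NSCs, 1.39 and 1.49 in EPSCs, and 2.08 and 2.08 in the hybrid libraries. Hybrid cells were lowest for Cacnb3, and EPSCs were lowest for Cacnb1.

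The 9 members raised in hybrid cells relative to NSCs were Cacna1a, Kcnd1, Kcne4, Kcnh3, Kcnip2, Kcnj14, Kcnk5, Kcnk6, and Kcns3. Kcnk5, an acid-sensitive leak channel known from kidney, was the most abundant, at 17.7 and 17.0 FPKM in the ESC libraries, 2.19 and 2.48 in NSCs, 21.7 and 19.3 in EPSCs, and 14.2 and 13.1 in the hybrid libraries. It was the top member of the list in EPSCs and hybrid cells. Its log2 fold change against NSCs was 2.13 (SE 0.09, limma, adjusted p = 2.1e-07), a ratio of 5.84. Kcns3, a silent subunit that only forms channels with other pores, was at 2.01 and 2.34 FPKM in the ESC libraries, 0.0131 and 0 in NSCs, 2.29 and 2.07 in EPSCs, and 1.31 and 1.56 in the hybrid libraries, and Kcnh3, a channel of the EAG-like family of the forebrain, at 1.41 and 1.29 FPKM in the ESC libraries, 0.0311 and 0 in NSCs, 1.09 and 1.37 in EPSCs, and 1.44 and 1.65 in the hybrid libraries. Kcnk6, a relative of the leak channel Kcnk1, was at 1.05 and 0.976 FPKM in the ESC libraries, 0.0451 and 0.0534 in NSCs, 1.80 and 1.70 in EPSCs, and 1.16 and 1.95 in the hybrid libraries. These 3 were at or under the floor in NSCs. Kcnip2, the KChIP of heart, was at 3.31 and 3.56 FPKM in the ESC libraries, 0.152 and 0.212 in NSCs, 1.47 and 1.21 in EPSCs, and 1.55 and 1.53 in the hybrid libraries, so ESCs exceeded EPSCs and hybrid cells, which exceeded NSCs. Kcnd1, an A-type pore, was higher in EPSCs and hybrid cells than in ESCs and NSCs, at 1.34 and 1.39 FPKM in the ESC libraries, 1.15 and 1.22 in NSCs, 2.56 and 2.26 in EPSCs, and 2.42 and 2.99 in the hybrid libraries. The members of the A-type channel and its KChIP partners thus did not move in 1 direction: Kcnd2, Kcnd3, Kcnip1, and Kcnip3 were below their NSC level in hybrid cells, and Kcnd1 and Kcnip2 were higher.

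Hybrid cells and EPSCs were compared to ask whether the hybrid cells differed from their pluripotent parent. Of the 52 tested members, 9 (17.3%) were higher in hybrid cells, against 22.5% of all tested genes, and 8 (15.4%) were lower, against 21.9%. The median log2 fold change was 0.00 over members and 0.00 over all tested genes. Under quantile normalization 6 were called higher and 9 lower, with 14 of these 15 among the 17. Only Kcnk1 changed by more than 1 on log2(FPKM + 1), whereas by the ratio of mean FPKM 8 called members changed more than 2-fold, 5 of them higher in hybrid cells. Only Kcnk1 passed the study's rule, 1 of 131 members against 0.866% of all listed genes. Of the 17 calls, 8 held under every alternative in which the gene was tested, and Cacnb3, Cacng4, Kcnab2, Kcne4, Kcnk1, and Kcnk5 were among them.

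**Figure D3:**
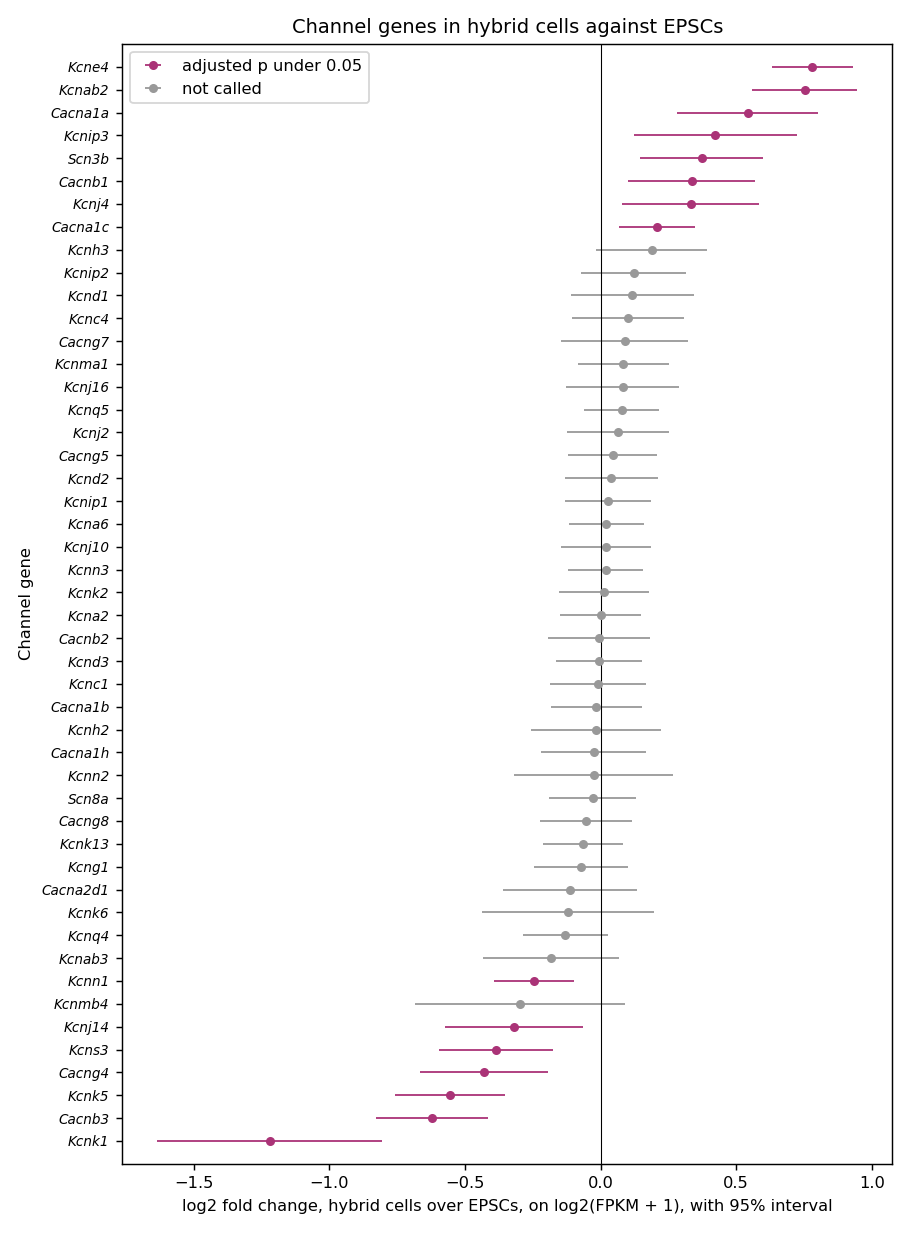
Log2 fold change of 48 tested members in hybrid cells against EPSCs, fitted by limma on log2(FPKM + 1), with its 95% interval, ordered by size. The 15 called members drawn lie at both ends of the range, from -1.22 for Kcnk1 to 0.78 for Kcne4, and the members that were high in NSCs alone mostly lie near 0.

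Kcnk1, a weakly rectifying leak channel expressed in brain and kidney, was at 4.49 and 4.93 FPKM in the ESC libraries, 1.60 and 2.00 in NSCs, 4.78 and 5.36 in EPSCs, and 1.15 and 2.15 in the hybrid libraries. On FPKM as deposited, hybrid cells lay at the NSC level and overlapped NSCs, while ESCs and EPSCs were higher without overlap. The log2 fold change against EPSCs was -1.22 (SE 0.18, limma, adjusted p = 0.00185), and that against NSCs was -0.10 (adjusted p = 0.608) with a 95% interval of -0.51 to 0.31. Once libraries were scaled to the same sum, Kcnk1 was called lower in hybrid cells than in NSCs, so its match to the NSC level depends on the scaling. Without hybrid replicate 1 the log2 fold change against EPSCs was -0.94, and the gene no longer passed the study's rule, nor did it without EPSC replicate 2. Kcnk5 was also lower in hybrid cells than in EPSCs, by a log2 fold change of -0.55 (adjusted p = 0.00249). Kcns3, Cacnb3, and Cacng4 had log2 fold changes of -0.38, -0.62, and -0.43 (adjusted p = 0.0118, 0.00167, and 0.0121). Kcnj14, an inward rectifier of motor neurons, was at 0.528 and 0.617 FPKM in the ESC libraries, 0.259 and 0.327 in NSCs, 0.965 and 1.28 in EPSCs, and 0.563 and 0.848 in the hybrid libraries, with a log2 fold change of -0.32 (adjusted p = 0.0478) that was lost under some alternatives. The calls of Kcns3 and Kcnn1 were also lost under some alternatives, with adjusted p of up to 0.0646 and 0.0627. Kcnn1, a small-conductance channel, was lower, at 0.376 and 0.351 in EPSCs and 0.162 and 0.137 in hybrid cells.

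Members that were higher in hybrid cells than in EPSCs included some that were high in NSCs and 1 that was near 0 in them. Kcnab2, a beta subunit of the Shaker-related channels, was at 0.18 and 0.289 FPKM in the ESC libraries, 9.66 and 10.5 in NSCs, 0.626 and 0.692 in EPSCs, and 1.76 and 1.83 in the hybrid libraries. Both hybrid libraries were above both EPSC and ESC libraries, and the ratio of hybrid to EPSC means was 2.72. The log2 fold change of Kcnab2 was 0.75 (SE 0.08, limma, adjusted p = 0.000668). Kcnip3 was at a log2 fold change of 0.42 (adjusted p = 0.0319), a call that was lost under 10 of the alternative settings, with adjusted p of up to 0.109. Kcne4, a subunit that inhibits several voltage-gated potassium channels, was near 0 in NSCs and highest in hybrid cells, at 0.176 and 0.192 FPKM in the ESC libraries, 0.031 and 0.0153 in NSCs, 0.78 and 0.885 in EPSCs, and 2.15 and 2.14 in the hybrid libraries. Its log2 fold change against EPSCs was 0.78 (SE 0.06, limma, adjusted p = 0.000248). Cacna1a, Cacnb1, Scn3b, Kcnj4, and Cacna1c were also called higher, with log2 fold changes of 0.54, 0.34, 0.37, 0.33, and 0.21, and all 5 were lost under at least 1 alternative.

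Fibroblast markers moved with this comparison. Each of the 10 exceeded its EPSC level in hybrid cells, with a median log2 fold change of 1.49, and 9 of 10 were higher in EPSCs than in ESCs. Col1a1 was at 1.86 and 2.06 FPKM in ESCs, 0.226 and 0.192 in NSCs, 13.7 and 15.7 in EPSCs, and 61.0 and 46.2 in hybrid cells. Kcne4 had the same order of groups, with NSCs lowest and hybrid cells highest. Its hybrid libraries were nearly equal, whereas the marker sum differed between them. The part of feeder RNA in the levels of Kcne4 and of the other members called between hybrid cells and EPSCs was not tested.

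**Figure D4:**
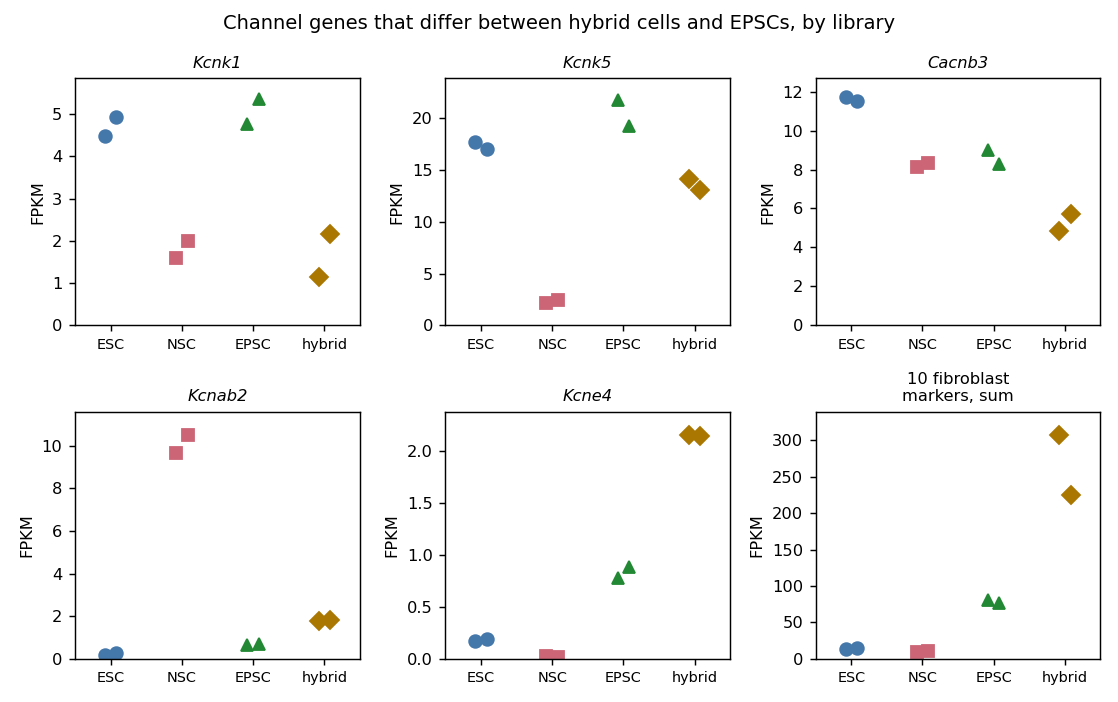
FPKM of Kcnk1, Kcnk5, Cacnb3, Kcnab2, and Kcne4 and the summed FPKM of 10 fibroblast markers in each library, with 2 points per group and vertical axes that start at 0. Kcnk1 in hybrid cells lies at the NSC level on FPKM as deposited, and Kcnab2 lies between the parents. Cacnb3 is lowest in hybrid cells, and Kcne4 and the marker sum are highest in hybrid cells.

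The position of hybrid cells between both parents was described for the 19 members that passed the study's rule between EPSCs and NSCs, on log2(FPKM + 1) with NSCs at 0 and EPSCs at 1. All 19 lay nearer to EPSCs, as did 97.1% of the 3809 genes of the same rule. The median position was 0.99 for members and 0.97 for all genes. Kcnab2 and Kcnk5 were shifted toward NSCs, at 0.73 and 0.79. Cacng4 and Kcnmb4 lay beyond EPSCs, at 1.12 and 1.07. Kcnk1 was not among the 19, since its ratio of EPSC to NSC means was 2.82.

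**Figure D5:**
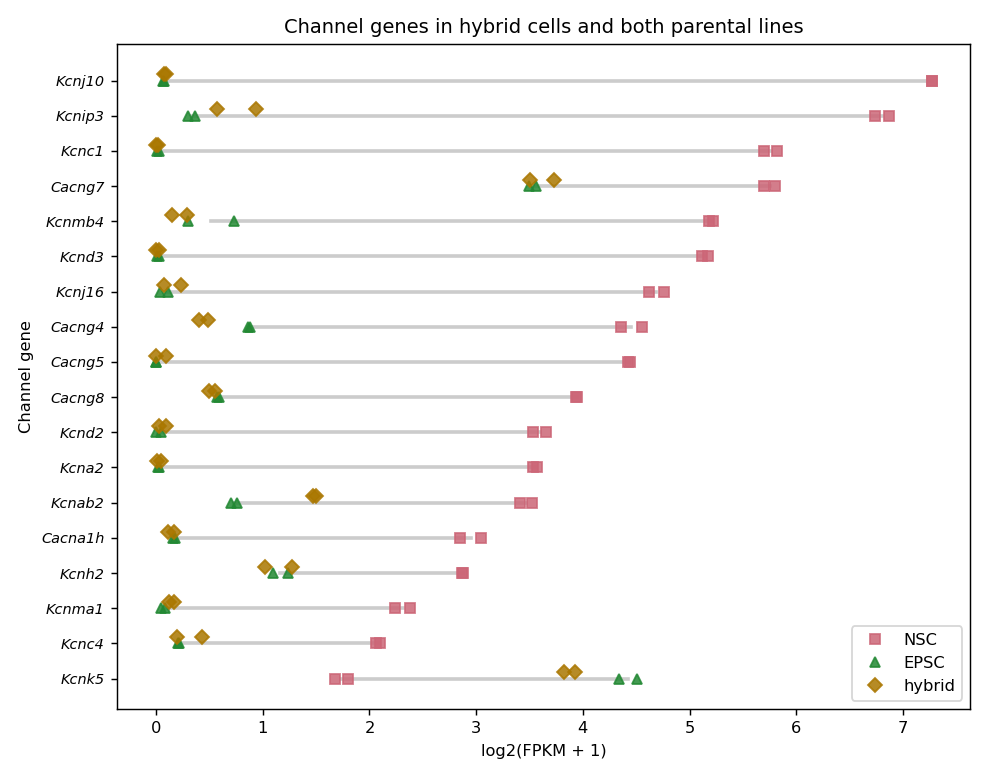
Expression of 18 of the 19 members that passed the study's rule between EPSCs and NSCs (rows), as log2(FPKM + 1) of each NSC, EPSC, and hybrid library, with a line that joins both parental means. The hybrid points lie on the EPSC points for most members and are shifted toward NSCs for Kcnab2 and Kcnk5.

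The comparison of both parents used the same EPSC and NSC libraries. Of the 52 tested members, 40 were lower in EPSCs than in NSCs (76.9%, against 41.0% of all tested genes) and 10 were higher (19.2%, against 45.2%). Among the 24 that entered through a group other than NSCs, 12 were lower and 10 higher (50% and 41.7%, against 35.6% and 49.3% of all such genes). By the study's rule 19 of 131 differed (14.5%, against 15.6% of all listed genes), and Kcnk5 was the only one higher in EPSCs. With libraries scaled to the same sum it gave 33 (25.2%, against 20.1%). The median log2 fold change was -1.26 over members and 0.08 over all tested genes. Kcnk5, Kcns3, Kcnk6, Kcnh3, and Kcnk1 had the largest log2 fold changes upward, at 2.69, 1.66, 1.39, 1.14, and 1.12. Kcnj10, Kcnip3, Kcnc1, Kcnd3, and Kcnmb4 had the largest downward, at -7.20, -6.47, -5.74, -5.13, and -4.69. All of these had an adjusted p of 0.00051 or less by limma. Of the 5 tested two-pore-domain members, 3 were higher in EPSCs, namely Kcnk1, Kcnk5, and Kcnk6, and Kcnk2 and Kcnk13 were lower.

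EPSCs were compared with ESCs to ask how the types of pluripotent cell differ. Of the 52 tested members, 18 were lower in EPSCs (34.6%, against 27.3% of all tested genes) and 5 were higher (9.62%, against 33.7%). Of the 23 calls, 15 held under every alternative in which the gene was tested. Only Cacng8 and Cacnb1 changed by more than 1 on log2(FPKM + 1), whereas 14 called members changed more than 2-fold by the ratio of mean FPKM. Cacng8 and Cacnb1 were also the 2 members past the study's rule, against 2.57% of all listed genes. Cacng8 went from 4.28 and 4.10 FPKM in ESCs to 0.503 and 0.482 in EPSCs, with a log2 fold change of -1.80 (SE 0.07, limma, adjusted p = 3.64e-06) and a ratio of means of 8.51. Cacnb1 had a log2 fold change of -1.38 (SE 0.10, limma, adjusted p = 3.79e-05). Of the 4 tested members each, 3 gamma subunits, 3 accessory subunits, and 3 pores of the calcium channels were lower in EPSCs, of which the calls of Cacng5, Cacna2d1, Cacna1a, and Cacna1h were lost under at least 1 alternative. Kcnh2, Cacng7, Kcnip2, and Kcnip3 were lower as well, with log2 fold changes of -0.95, -0.93, -0.92, and -0.87 (adjusted p = 0.00021, 0.00021, 9.2e-05, and 0.000864). Those higher in EPSCs were Kcne4, Kcnd1, Kcnk6, Kcnj14, and Kcnab2, with log2 fold changes of 0.63, 0.53, 0.45, 0.43, and 0.43. The calls of Kcnk6 and Kcnj14 were lost in several alternatives. With the replicate number as a block, the call of Cacng5 was lost, with an adjusted p of 0.0548 in place of 0.037. ESC and EPSC libraries differ in line, strain, and medium together, and these cannot be told apart.

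ESCs were also compared with NSCs. Of the 52 tested members, 37 were lower in ESCs (71.2%, against 41.9% of all tested genes) and 12 were higher (23.1%, against 42.8%). Without those that entered through NSCs alone, 9 of 24 were lower and 12 higher (37.5% and 50%, against 36.6% and 46.7% of all such genes). By the study's rule 18 of 131 differed (13.7%, against 15.0%), or 30 with libraries scaled to the same sum (22.9%, against 19.5%). Kcnj10 and Kcnc1 had log2 fold changes of -6.98 (adjusted p = 6.87e-10) and -5.70 (adjusted p = 1.78e-09). The largest increases were those of Kcnk5, at 2.46 (adjusted p = 1.03e-07), and of Kcnip2, at 1.91 (adjusted p = 3.03e-07). Cacnb1 and Cacnb3 were called higher in ESCs on FPKM as deposited but changed direction once libraries were scaled to the same sum, and 2 members, Kcne4 among them, changed direction under quantile normalization. No other called member changed direction under either setting, in this or the other comparisons.

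Several members lie next to each other in the genome and can be read as neighbors, with positions from RefSeq on GRCm38.p6. Cacng4 (chromosome 11, 107732357 to 107794706) and Cacng5 (chromosome 11, 107874604 to 107915055) are 79898 bases apart and were both high in NSCs only, whereas Cacng1, 15881 bases from Cacng4, was at most 0.132 FPKM in any library. Kcnj10 (chromosome 1, 172341210 to 172374085) lies 11888 bases from Kcnj9, which was at 0.422 and 0.406 FPKM in NSCs. Both were highest in NSCs, at levels far apart. Kcnj16 and Kcnj2 on chromosome 11 are 38196 bases apart, with NSC levels of 23.6 and 26.1 and 0.996 and 1.24 FPKM. On chromosome 3, Kcna2 was at 10.6 and 10.9 in NSCs, while its neighbors Kcna3 and Kcna10 stayed at or under 0.15 in every library. On chromosome 7, Cacng7 and Cacng8 were high in NSCs and Cacng6, 7322 bases from Cacng8, was not, at 0.558 and 0.714 FPKM in the ESC libraries, 0 and 0.0608 in NSCs, 0.558 and 1.29 in EPSCs, and 0.22 and 0.612 in the hybrid libraries.

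The 79 members outside the test also hold a few patterns, given as values. Kcnt2, a sodium-activated channel, was at 0.843 and 0.724 FPKM in the ESC libraries, 0.0187 and 0 in NSCs, 0.288 and 0.497 in EPSCs, and 0.0774 and 0.117 in the hybrid libraries. Kcnj3, the G protein-gated inward rectifier of heart and brain, was at 0.514 and 0.611 FPKM in ESCs and at most 0.0188 in the other 6 libraries. Scn3a, an embryonic sodium channel pore, was at 0.191 and 0.191 FPKM in the ESC libraries, 0.172 and 0.159 in NSCs, 0.452 and 0.454 in EPSCs, and 0.323 and 0.309 in the hybrid libraries. Cacna1g, a T-type pore, was at 0.0705 and 0.14 FPKM in the ESC libraries, 0.671 and 0.744 in NSCs, 0.227 and 0.284 in EPSCs, and 0.791 and 0.525 in the hybrid libraries. Kcnj15 was at 0 in ESCs and NSCs, 0.131 and 0.0631 in EPSCs, and 0.387 and 0.292 in hybrid cells. Kcnf1, a silent potassium channel subunit, was at 0.255 and 0.205 FPKM in the ESC libraries, 1.05 and 0.92 in NSCs, 0.658 and 0.52 in EPSCs, and 0.741 and 0.574 in the hybrid libraries and missed the test's minimum by a narrow margin. All of these were below the level at which the test was run, and no test of them is given here.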

How the data were processed

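The authors prepared stranded poly-A libraries, trimmed the paired reads of 100 bases with skewer, used STAR 2.7.9a for alignment to mm10, and obtained gene levels from Cuffnorm (Cufflinks 2.2.1). The values deposited by the authors are FPKM per gene and library. The gene annotation, the strand setting, and the library normalization are not given in the sources used here, so reads of overlapping genes may be mixed. All 8 columns were mapped to samples by description. Positions and promoters came from RefSeq on GRCm38.p6, with all 131 members matched. Depth was derived from FPKM steps of genes with 1 transcript over 1500 nucleotides, at an assumed fragment length of 200, where 77.4% to 86.3% of values lay within 0.1 of a whole count. This assumes whole fragments and was not used in any test.

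limma 3.58.1 (R 4.3.3, lmFit, contrasts, and eBayes with trend, two-sided) was fitted to log2(FPKM + 1) of all 8 libraries, with 4 residual and 3.25 prior degrees of freedom. Fold changes on this scale understate those of low genes. Summaries used Python 3.11.15 with pandas 2.3.3. In simulated data for hybrid cells against EPSCs, over 13239 genes, 182 of 200 changed genes were called (97 of 100 at a log2 change of 2, 85 of 100 at 1), with 12 false calls. The changed genes were drawn from those with a mean log2(FPKM + 1) over 1 across all 8 libraries. This recovery therefore does not describe members below that level. Members and lists were chosen with earlier results of these data known. Named with values by rule were the 3 highest members of each group, the 5 largest called changes in each direction and comparison, and the highest member of each class. Other members named were chosen after their values were seen, and some members are not reported here by name or drawn in the figures, although they stay in all counts. Alternatives covered the added constant (0.1 or 0.5), the filter, the normalization, the groups in the fit, a replicate block, the thresholds, and each library left out in turn.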

Additional observations from a re-analysis of the deposited data

How the results depend on the processing

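No fold change of a member named by rule turned its direction under the alternatives. For hybrid cells against EPSCs, the split of 9 higher and 8 lower members turned to more lower than higher without a filter (9 and 11), under quantile normalization (6 and 9), with only these groups in the fit (4 and 6), without EPSC replicate 1 or 2 (4 and 7 each), without hybrid replicate 1 (5 and 7), and without hybrid replicate 2 (6 and 10). Without a filter on low values, 76 members were called between EPSCs and NSCs, 46 between EPSCs and ESCs, and 84 between ESCs and NSCs, as more were tested. With a minimum mean of 3 FPKM, 25 members were tested, and 24, 10, 24, 13, and 25 were called for hybrid cells against NSCs, hybrid cells against EPSCs, EPSCs against NSCs, EPSCs against ESCs, and ESCs against NSCs. Shares of all genes are not given for limma counts under alternatives, so these do not set members apart from other genes. In the main setting, 44.5% of all tested genes were called higher and 42.0% lower in hybrid cells than in NSCs. For hybrid cells against EPSCs, 10 members were called with only these groups in the fit, 1 was also changed more than 2-fold, and leaving out 1 library gave 11 to 16, with 11 without EPSC replicate 1 or 2. For EPSCs against ESCs, 2 were changed more than 2-fold. The study's methods and its results text differ in the thresholds of this rule. With thresholds of 2 in place of 3, 2 members differed between hybrid cells and EPSCs (1.53%, against 3.12% of all listed genes) and 4 between EPSCs and ESCs (3.05%, against 7.07%). Leaving out 1 library gave 0 to 1 for hybrid cells against EPSCs, with 0 without EPSC replicate 2 or hybrid replicate 1. With libraries scaled to the same sum, the rule gave 34 for hybrid cells against NSCs, 33 for EPSCs against NSCs, and 30 for ESCs against NSCs. The shares of all listed genes were 20.6%, 20.1%, and 19.5%. With this scaling 33 members lay nearer to EPSCs, and before it 97.1% of all genes of the rule did. With a mean over 0.5 FPKM, ESCs had 31 members (23.7%, against 50.3% of all listed genes). With a mean over 3 FPKM, ESCs had 11, NSCs 21, EPSCs 5, and hybrid cells 5 (8.4%, 16.0%, 3.82%, and 3.82%). Over all listed genes, these shares were 38.2%, 40.8%, 37.9%, and 38.4%. Of the log2 fold changes of named members under alternatives, 779 kept their direction and side of the threshold and 17 lost the call. The cause was not tested where none is given.

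Replicate numbers were shared by all groups, and same-numbered libraries deviated together with r between -0.11 and 0.28, so that the numbers were not taken as pairs. With the replicate block, 50, 17, 51, 23, and 49 members were called in the order above, against 50, 17, 50, 23, and 49 without it, and 50, 17, 50, 22, and 49 were shared. With the numbers of ESC libraries crossed, an alternative chosen after seeing the data, 49 were called between ESCs and NSCs. Depth limits the members near or below the floor of 0.0757 FPKM, where differences were not detectable, and with 2 libraries per group no single deviating library can be tested for.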

Other observations

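Genes outside the symbol rule that act with these channels were read from the same limma fit, in lists chosen with earlier results of these data known. Of 12 HCN and other cation channel genes, 7 were tested, and 4 were lower and 1 higher in hybrid cells than in NSCs. Over all tested genes, 42.0% were lower and 44.5% higher in this comparison, the shares against which this and the other lists below are to be read. Unc79, a subunit of the sodium leak channel complex, was at 4.67 and 4.71 FPKM in NSCs and at most 0.0287 elsewhere, whereas its pore Nalcn stayed below 1 FPKM in all groups. Hvcn1, the voltage-gated proton channel, was the higher one, at 12.3 and 12.1 in ESCs, 0.298 and 0.308 in NSCs, 8.83 and 8.89 in EPSCs, and 7.98 and 8.04 in hybrid cells. Hcn2, a hyperpolarization-activated pacemaker channel, was at 4.43 and 4.81 in ESCs, 1.64 and 2.51 in EPSCs, and 0.875 and 1.13 in hybrid cells, and was lower in hybrid cells than in EPSCs (limma, log2 fold change -0.61, adjusted p = 0.0109).

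Of 16 partner proteins of sodium and calcium channels, 10 were tested, with 7 lower and 2 higher in hybrid cells than in NSCs. Ank2, an ankyrin that tethers channels to the membrane skeleton, was at 75.8 and 81.5 FPKM in NSCs and 0.869 and 0.762 in hybrid cells, and Nrcam, an adhesion molecule of the axon initial segment, at 22.6 and 24.2 and 0.37 and 0.178. Sptbn4, the spectrin of the axon initial segment, was higher in hybrid cells, at 4.14 and 3.44 against 0.349 and 0.314 in NSCs. Of 13 partner proteins of potassium channels, 4 were tested, with 3 lower and 1 higher. Amigo1, a membrane protein that joins potassium channels, was at 4.71 and 5.33 in NSCs and 0.387 and 0.394 in hybrid cells.

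Rest, a repressor of neuronal genes in other cells, was at 30.6 and 31.6 FPKM in ESCs, 8.64 and 8.87 in NSCs, 37.3 and 41.4 in EPSCs, and 35.2 and 26.6 in hybrid cells. All 8 genes of the REST complex list were tested, with 5 higher and 3 lower in hybrid cells than in NSCs, where 44.5% and 42.0% of all tested genes were. The summed level of the 4 astrocyte markers was 37.7 and 32.1 FPKM in NSCs and 4.33 and 5.68 in hybrid cells, where nearly all of it was Aldh1l1, the marker that was higher in hybrid cells than in NSCs. The sum of the 6 oligodendrocyte lineage markers was 15.1 and 13.4 in NSCs and 4.17 and 3.90 in hybrid cells. Its largest part was Cspg4 in NSCs, at 6.91 and 6.52, and Pdgfra in hybrid cells, at 2.42 and 2.21. Mbp went the other way, at 0.282 and 0.277 in NSCs and 0.674 and 0.738 in hybrid cells. Sox10 was at most 0.125 in any library. Of the 8 neuron markers, Rbfox3, Dcx, and Syt1 were at most 0.244 FPKM in any library. Map2 was highest in NSCs at 173 and 191, and so was Snap25, at 0.639 and 0.870. Stmn2 was highest in EPSCs and hybrid cells, at 168 and 129 in the latter. Syn1 was highest in ESCs, at 5.15 and 6.04, with 3.64 and 3.57 in NSCs and 2.58 and 1.91 in hybrid cells. Nefm was highest in hybrid cells, at 1.63 and 1.78, with 0.312 and 0.366 in NSCs.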
